A study of Homo sapiens with 2 samples.

Results

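The regions described here are the 1 Mb bins of the HEK293T genome with the highest compartment scores on each of 16 chromosomes (1, 2, 3, 6, 7, 8, 9, 10, 12, 15, 16, 17, 18, 19, 20 and 21), called high-score bins below. Of the 23 chromosomes with deposited scores, the other 7 were not used, so counts of chromosomes below cover these 16 only. Within the 16, bins were chosen by their measured score. A bin was a member when its score was at or above the 2/3 quantile of its own chromosome's scored bins. This gave 676 bins out of 2008 scored bins on these chromosomes, and out of 2883 scored bins in the whole series. The remaining 1332 scored bins are the comparison, split where it helps into 656 middle-score bins and 676 low-score bins. The data are in situ Hi-C maps of HEK293T cells, a line derived from human embryonic kidney that carries the SV40 large T antigen. The series has 1 group of 2 libraries, both of cells fixed with formaldehyde and given no other treatment, and neither a second condition nor an unfixed control. The deposited tables give values for the group as a whole, so no value below has a spread between replicates. Positions are in hg19, counted from 1.

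Chromatin of a mammalian nucleus is sorted into A and B compartments, which differ in which distant regions they touch. The A compartment is known as the gene-rich, transcribed and early-replicating part, and the B compartment as the gene-poor part that often lies at the nuclear lamina. At a finer scale the cohesin complex extrudes chromatin into contact domains, and pairs of CTCF sites at which it halts appear as loops. A compartment score separates the compartments by its sign, but which sign marks which compartment is not stated for these scores, and no gene was placed on the bins. The bins are therefore called by their score and not A or B.

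Because the score chose the bins, the score values are a description. All 676 high-score bins had positive scores, and a further 252 positive bins fell below the cut-offs. The cut-off ranged from 0.00483 on chromosome 2 to 0.0905 on chromosome 18. The squares of the scores summed to 1 on each of the 23 chromosomes of the table, so score levels do not compare between chromosomes. On chromosome 2 the cut-off lay close to 0 and 81 of 84 positive bins were members, while on chromosome 17 only 27 of 46 were. The step from the last bin inside to the first bin outside was small. On chromosome 1 it was 0.0208 at 201 to 202 Mb inside, against 0.0205 at 117 to 118 Mb outside. The widest step was on chromosome 20, with 0.0900 at 0 to 1 Mb inside and 0.0787 at 30 to 31 Mb outside. Members just inside a cut-off were thus close in score to bins just outside it.

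High-score bins came in blocks. They formed 182 runs of directly adjoining bins, with a median length of 2 Mb (quartiles 1 and 5 Mb, mean 3.71 Mb). Single bins made up 55 of the runs but only 8.14% of the bins. The 55 runs of 5 or more bins held 433 bins, or 64.1% of the members, and the 9 runs of 10 or more held 137. The longest run lay on chromosome 6, from 27 to 46 Mb. It was 19 Mb long and held 63 contact domains (3.32 per Mb) and 42 loop anchors. The next run, of 18 Mb on chromosome 3 (42 to 60 Mb), held only 28 domains (1.56 per Mb) and 16 anchors. Runs of 16 Mb lay on chromosome 1 (14 to 30 Mb, 47 domains, 52 anchors) and chromosome 15 (63 to 79 Mb, 35 domains, 17 anchors). There were 3 runs of 15 Mb. The one on chromosome 2 (61 to 76 Mb) held 31 domains and 27 anchors. Those on chromosome 9 held 22 domains each, with 35 anchors in the run at 86 to 101 Mb and 19 in the run at 126 to 141 Mb. Domain density in these 7 runs spanned 1.47 to 3.32 per Mb.

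**Figure D1:**
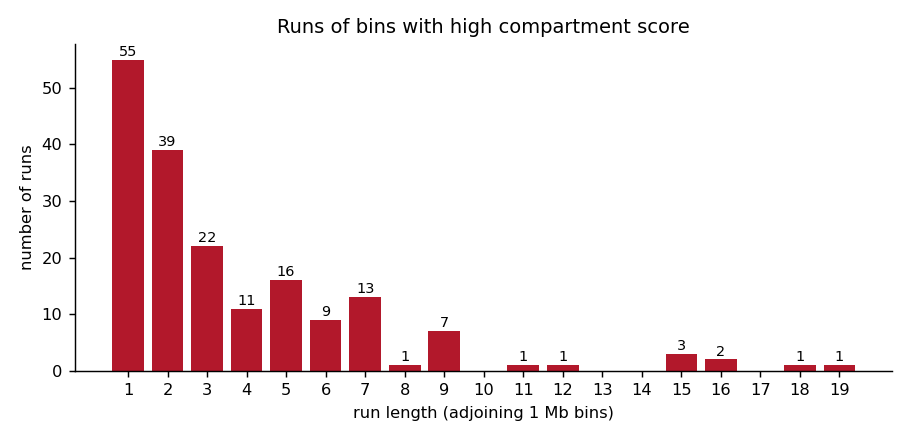
Number of runs (y axis) by run length in adjoining 1 Mb bins (x axis) for the 676 high-score bins, with the count above each bar. Runs of 1 bin were the most frequent (55), and a tail reached the 19 Mb run on chromosome 6.

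Contact domains, assigned to the bin of their midpoint, were dense in high-score bins. There were 1365 domains in the 676 high-score bins, or 2.02 per Mb (95% Poisson interval 1.91 to 2.13). The other bins held 1456 domains, or 1.09 per Mb (1.04 to 1.15). The ratio was 1.85 (1.71 to 1.99). Middle-score bins had 1.52 domains per Mb (1.43 to 1.62) and low-score bins 0.680 (0.620 to 0.746). A domain midpoint lay in 569 of the high-score bins (84.2%), against 69.0% of all scored bins of these chromosomes. At least 4 midpoints lay in 90 high-score bins (13.3%), against 6.92% of all scored bins. These intervals, like all others in the text, cover counting error only and treat domains as independent. Score, domains and loops are all readings of the same contacts, and no chance test was made.

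Over all 676 high-score bins, the number of domains varied little with the score. When the members of each chromosome were divided into 5 near-equal sets by score, the density was 2.05, 1.95, 1.94, 1.90 and 2.24 per Mb from the lowest set to the highest. The intervals of these 5 values overlapped. Spearman's rho between score rank and number of domains was 0.0353 over the 676 members and 0.448 over the 2008 scored bins, given as a description since neighbouring bins share contacts. Over all scored bins, divided into 10 sets by score rank, density was 0.351 per Mb in set 1, 1.73 in set 6 and 1.81, 2.02, 1.88 and 2.17 in sets 7, 8, 9 and 10. Without the bins within 10 Mb of a chromosome end, the density went on climbing within the high-score range. Sets 8, 9 and 10 then had 2.06 (1.85 to 2.29), 2.13 (1.91 to 2.38) and 2.56 domains per Mb (2.32 to 2.82), and the intervals of sets 8 and 10 did not overlap. Median domain length followed the opposite course, with 392.5 kb in set 1 and 165 kb in set 10. The 2 trends offset each other in the share of sequence inside a domain. That share was 48.2% in high-score bins, 50.1% in middle-score bins and 31.5% in low-score bins. High-score bins thus had more and shorter domains than middle-score bins over a similar covered length.

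**Figure D2:**
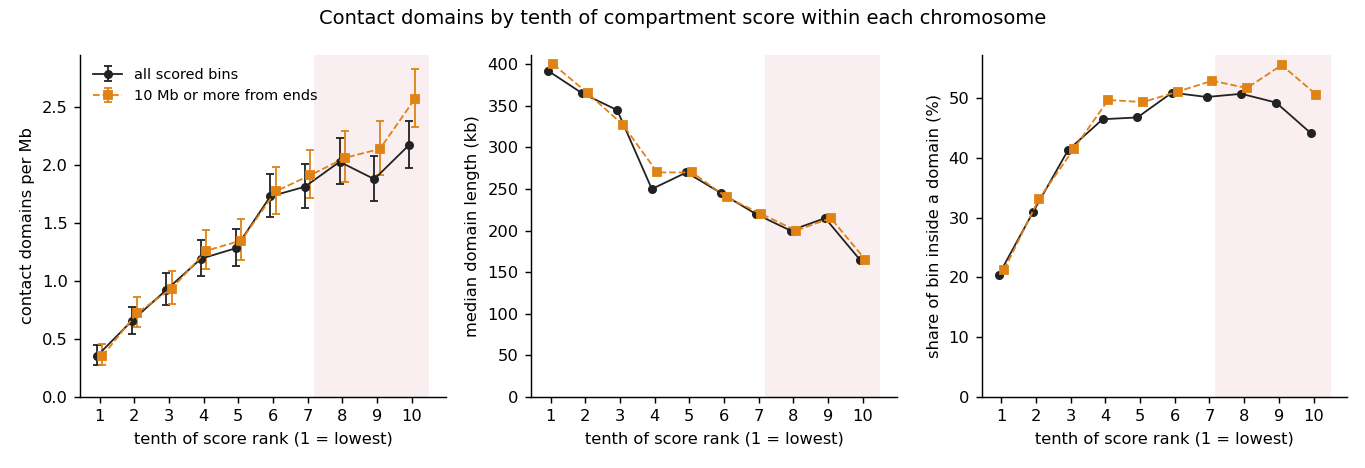
Domains per Mb (left, with 95% Poisson intervals), median domain length in kb (centre) and percent of bin sequence inside a domain (right), by set of score rank within each chromosome (10 sets, 1 the lowest). Black circles are all scored bins and orange squares leave out bins within 10 Mb of a chromosome end; the shaded sets are mostly high-score bins, and the median length over all bins was 165 kb in set 10.

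The order of the classes was alike on most chromosomes. Domain density was higher in high-score than in other bins on 16 of 16 chromosomes. Against middle-score bins alone it was higher on 14, with chromosomes 16 and 21 the exceptions. These counts are a description, since the 16 chromosomes and their bins were chosen with earlier results of these data known. Whether the sign of the score was set alike on each chromosome is not stated. High-score bins were densest on chromosome 6 (2.75 domains per Mb, against 1.28 in other bins), chromosome 10 (2.64 against 1.53) and chromosome 1 (2.48 against 1.50). They were sparsest on chromosome 21 (1.00 against 0.680) and chromosome 16 (1.04 against 0.926). On chromosome 17 the classes lay close together, with 2.37 per Mb in high-score bins, 2.19 in middle-score bins and 1.89 in low-score bins. The covered share did not follow the same order. It was lower in high-score than in middle-score bins on 9 of 16 chromosomes, and the gap was widest on chromosome 16 (27.0% against 51.1%).

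**Figure D3:**
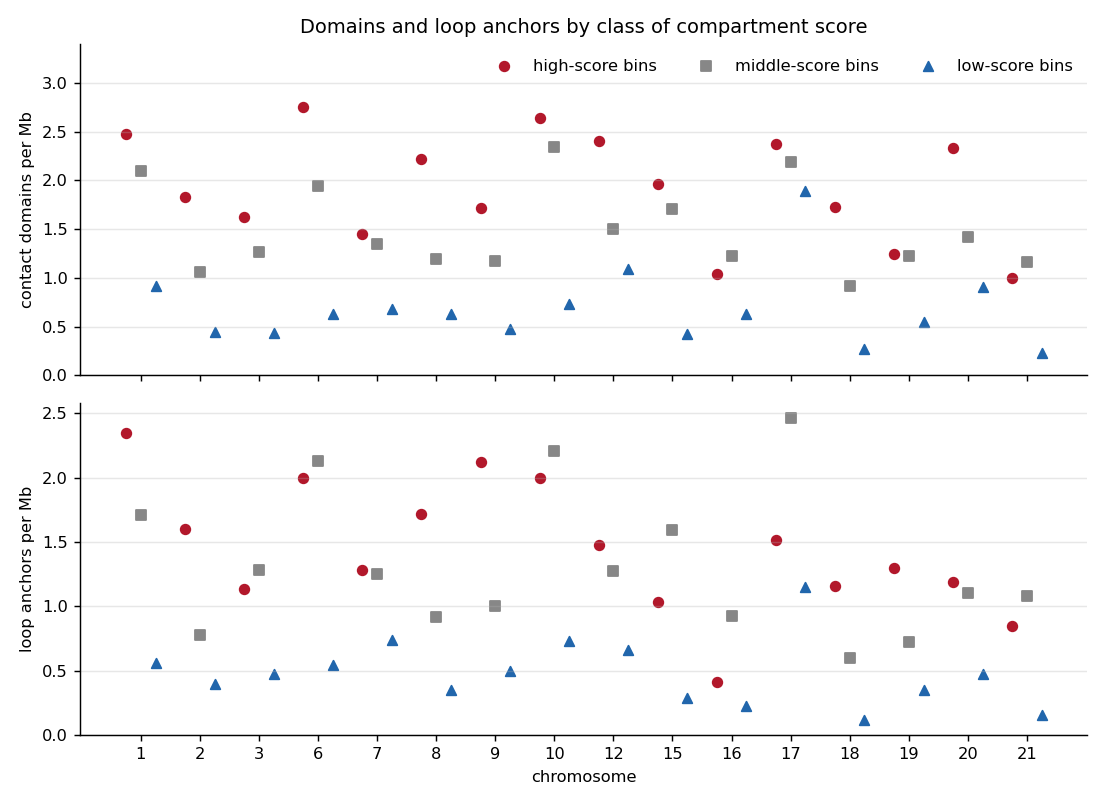
Contact domains per Mb (top) and loop anchors per Mb (bottom) on each of the 16 chromosomes, for high-score (circles), middle-score (squares) and low-score bins (triangles). Circles lie above triangles on every chromosome in both panels, while for anchors the squares lie above the circles on 7 chromosomes.

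High-score bins near chromosome ends were frequent but sparse in domains. Of 298 scored bins within 10 Mb of an end, 132 were members (44.3%, 95% Wilson interval 38.8 to 49.97%), against 544 of 1710 bins farther in (31.8%, 29.6 to 34.1%). In the first 2 Mb from an end the share was 61.4% (35 of 57 bins). Yet the end members held only 146 domains, or 1.11 per Mb (0.934 to 1.30), against 2.24 per Mb (2.12 to 2.37) in the members farther in. Domain density in high-score bins climbed with distance from the end, with 0.686 per Mb at 0 to 2 Mb, 0.900 at 2 to 5 Mb, 1.64 at 5 to 10 Mb, 2.06 at 10 to 20 Mb and 2.28 beyond 20 Mb. Other bins were sparser near the ends too, with 0.783 domains per Mb (0.654 to 0.930) within 10 Mb of an end and 1.14 (1.08 to 1.20) farther in. Middle-score bins had 0.286 per Mb in the first 2 Mb and 1.58 beyond 20 Mb. The ratio of high-score to other bins was 1.41 (1.11 to 1.80) at the ends and 1.97 (1.82 to 2.13) farther in. At 2 to 5 Mb from an end the high-score bins had fewer domains than the middle-score bins (0.900 against 1.21 per Mb), with overlapping intervals. The covered share was 29.1% in end members and 52.8% in the others. Median domain length was nearly equal, 197.5 and 195 kb, so the end members differed in the number of domains and not in their length. End members were the sparser ones on 15 of 16 chromosomes. The exception was chromosome 15, where a single end member held 3 domains. On chromosome 21 the 6 end members held none, against 1.86 per Mb in the other 7. On chromosome 19 the 8 end members had 0.25 per Mb, against 1.92 in the other 12, and on chromosome 17 the values were 1.14 and 3.69. Of the 107 high-score bins with no domain midpoint, 60 lay within 10 Mb of an end. Each bin was counted as 1 Mb, also the last of a chromosome. The limit of 10 Mb was chosen after the data were seen, and the reason for the difference was not tested.

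**Figure D4:**
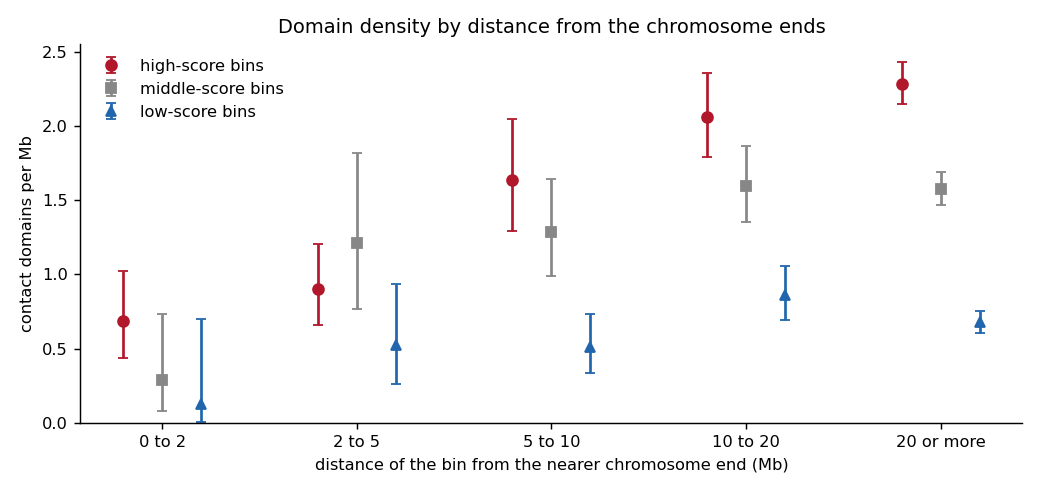
Contact domains per Mb (y axis, 95% Poisson intervals) by distance of the bin from the nearer chromosome end in Mb (x axis), for high-score (circles), middle-score (squares) and low-score bins (triangles). High-score bins go from 0.686 per Mb in the first 2 Mb to 2.28 per Mb beyond 20 Mb.

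The bins with the highest score of each chromosome show this directly. Of these 16 bins, 6 held no domain midpoint, and 5 of those 6 lay within 10 Mb of an end. These 5 were on chromosome 1 (1 to 2 Mb, score 0.104), chromosome 7 (2 to 3 Mb, 0.142), chromosome 17 (1 to 2 Mb, 0.173), chromosome 19 (5 to 6 Mb, 0.181) and chromosome 21 (44 to 45 Mb, 0.249). The remaining one, on chromosome 18 (46 to 47 Mb, 0.165), had neither a domain midpoint nor an anchor. The 10 other highest bins all lay farther than 10 Mb from an end and held 1 to 5 domains. Those with 5 were 43 to 44 Mb on chromosome 6 (830 kb of the bin inside domains) and 103 to 104 Mb on chromosome 10 (870 kb). The highest bin of chromosome 12, 121 to 122 Mb, held 4 domains and no anchor. The highest bin of chromosome 9, 130 to 131 Mb, held 3 domains and 9 anchors, none of which belonged to a loop of up to 2 Mb.

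The high-score bins with most domains had 670 to 880 kb of their sequence inside domains. The bin at 46 to 47 Mb of chromosome 17 held 8 domain midpoints and 6 loop anchors, with 815 kb inside domains. The bin at 29 to 30 Mb of chromosome 18 also held 8 and 6, with 840 kb covered, and it was a run of its own. It ranked at 75.3% of its chromosome's scores, so a bin close to the cut-off was among the richest. Bins with 7 domains lay on chromosome 6 (33 to 34 Mb), chromosome 8 (101 to 102 Mb) and chromosome 1 (23 to 24 Mb), with 880, 875 and 670 kb covered. The one on chromosome 1 also held 10 anchors.

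Domains in high-score bins were short. Their median length was 195 kb (95% binomial interval of the median 180 to 205 kb; quartiles 125 and 330 kb; range 60 to 1735 kb). In other bins it was 270 kb (255 to 290 kb; quartiles 155 and 480 kb), a ratio of 0.722 (0.659 to 0.791). It was 250 kb in middle-score and 340 kb in low-score bins. The median was shorter in high-score than in other bins on 14 of 16 chromosomes. It was longer on chromosome 15 (275 against 215 kb) and chromosome 21 (250 against 245 kb). Chromosome 17 had the shortest domains of all, with a median of 130 kb in high-score bins and 170 kb in other bins. Domains of up to 100 kb made up 13.6% of those in high-score bins (186 domains), against 10.7% of all domains on these chromosomes. Domains of 700 kb or more made up 3.15% (43 domains), against 8.44% of all. Per Mb of bins, domains of 100 to 200 kb had the widest difference between the classes, with 0.781 in high-score, 0.462 in middle-score and 0.175 in low-score bins. By ratio it was widest for domains of up to 100 kb, with 0.275, 0.136 and 0.0414 per Mb in the same order. Domains over 700 kb were the fewest in high-score bins, with 0.0621 per Mb there, 0.145 in middle-score and 0.146 in low-score bins.

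The domain caller's own score, which grades how clearly a domain stands out, differed little overall and more among long domains. Its median was 1.21 in high-score bins (1.20 to 1.23) and 1.18 in other bins (1.17 to 1.20). For domains of 100 to 200 kb the medians were 1.23 and 1.24. For the 42 domains over 700 kb in high-score bins the median was 1.18 (1.09 to 1.35), against 0.988 (0.916 to 1.03) for 194 in other bins. Middle-score bins (1.03) and low-score bins (0.937) both lay below the high-score bins there. In high-score bins the few long domains thus had a median caller score near that of domains of 100 to 200 kb, unlike in other bins. Domains of up to 100 kb had lower medians, 1.09 (1.06 to 1.13) in high-score and 1.06 (1.04 to 1.10) in other bins. In middle-score bins the median for domains of up to 100 kb was 1.04, close to that of the long ones. The sources used here do not define that score further.

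The 3 highest caller scores among the members belonged to domains of 190 kb on chromosome 10 (103350001 to 103540000, score 1.86), 245 kb on chromosome 3 (112760001 to 113005000, 1.85) and 250 kb on chromosome 3 (149680001 to 149930000, 1.84). The first of these lay in the bin with the highest compartment score of chromosome 10. The lowest scores belonged to domains of 525 kb on chromosome 2 (112815001 to 113340000, 0.265), 345 kb on chromosome 1 (149020001 to 149365000, 0.291) and 345 kb on chromosome 10 (125745001 to 126090000, 0.379). The longest were 1735 kb on chromosome 7 (2885001 to 4620000, score 0.991), 1530 kb on chromosome 10 (33405001 to 34935000, 0.998) and 1200 kb on chromosome 10 (79795001 to 80995000, 1.34). The longest began within the bin at 2 to 3 Mb that had the highest score of chromosome 7 and no midpoint of its own.

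The share of domains with a loop at their corner lay near the background in high-score bins. Of the 1365 domains there, 352 (25.8%, Wilson interval 23.5 to 28.2%) had a loop joining both ends, against 25.7% of all domains on these chromosomes. The share was 28.01% in middle-score bins and 20.7% (17.2 to 24.6%) in low-score bins. Among domains over 700 kb it was 23.8% (10 of 42) in high-score bins, against 11.9% (23 of 194) in other bins, with overlapping intervals. The level of the share depended on the tolerance. At 25 kb it was 22.9% in high-score and 22.3% in other bins, and at 10 kb 12.9% and 14.0%. Domains that held a smaller listed domain made up 7.55% (103), against 6.88% of all. Another domain began or ended within 10 kb of an end for 15.8% (13.9 to 17.8%) of the domains in high-score bins and 19.02% (17.1 to 21.1%) of those in other bins. Higher density was thus not matched by a larger share of abutting domains.

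**Figure D5:**
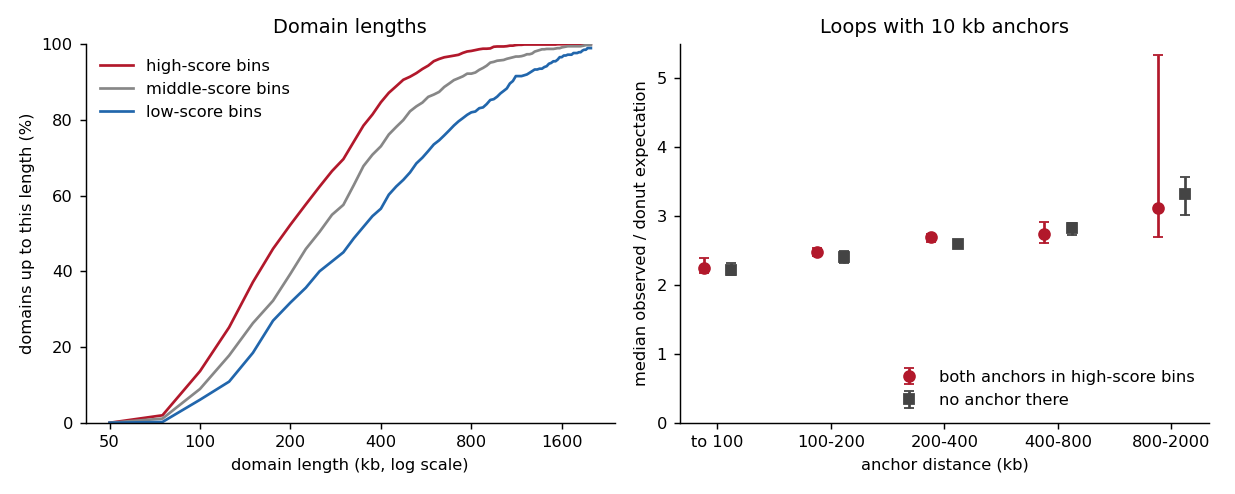
Left, cumulative percent of domains by length in kb (log scale) for high-score, middle-score and low-score bins; the high-score curve lies to the left, with a median of 195 kb. Right, median observed over donut-expected contacts, with 95% binomial intervals of the median, for loops with 10 kb anchors by anchor distance, with both anchors in high-score bins (circles) or none (squares); the pairs differ little at each distance.

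Loop anchors, assigned by their centres, were also dense in high-score bins, but less evenly than domains. There were 1069 anchors, or 1.58 per Mb (1.49 to 1.68), in high-score bins and 1229, or 0.923 per Mb (0.872 to 0.976), in other bins. The ratio was 1.71 (1.58 to 1.86). Each loop gave 2 anchors, and 366 loops had both in the same high-score bin. The intervals of anchor counts treat anchors as independent and are thus too narrow. Middle-score bins held 1.35 per Mb (1.26 to 1.44) and low-score bins 0.507 (0.455 to 0.564). At least 1 anchor lay in 393 high-score bins (58.1%), against 45.5% of all scored bins. Anchor density was higher in high-score than in other bins on 14 of 16 chromosomes, all but 16 and 17. Against middle-score bins alone it was higher on 9 and lower on chromosomes 3, 6, 10, 15, 16, 17 and 21. By difference, the widest gaps in favour of high-score bins were on chromosome 9 (2.12 against 0.744 per Mb in other bins), chromosome 1 (2.35 against 1.13) and chromosome 8 (1.71 against 0.625). Loops over 2 Mb with both anchors in high-score bins add to these counts, with 9 such loops on chromosome 9 and 10 on chromosome 1. The order of the gaps without them was not computed. On chromosome 16 the order was opposite, 0.407 against 0.574 per Mb. High-score bins within 10 Mb of an end held 0.818 anchors per Mb, against 1.77 in those farther in, and other bins near the ends held 0.735. The end members had the lower density on 13 of 16 chromosomes. On chromosome 7 the 11 end members held none, while on chromosome 12 the 12 end members had 2.25 per Mb, against 1.19 in those farther in. Chromosomes 3 and 15 were the other exceptions.

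The high-score bins with most anchors were of different kinds. The bin at 25 to 26 Mb of chromosome 7 held 13 anchors and 5 domains, and the bin at 138 to 139 Mb of chromosome 6 held 11 anchors and 4 domains. All of these anchors belonged to loops of up to 2 Mb. The chromosome 6 bin had the score that set the cut-off there, 0.0501. The bin at 92 to 93 Mb of chromosome 9 also held 11 anchors, but only 4 of them belonged to loops of up to 2 Mb, and it held 1 domain. The bin at 17 to 18 Mb of chromosome 1 held 10 anchors, 6 of them of loops of up to 2 Mb.

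Loops that touched a high-score bin mostly had both anchors in high-score bins, as loops elsewhere mostly kept to other bins. Of 579 such loops, 490 had both anchors in high-score bins (84.6%, Wilson interval 81.5 to 87.3%). Of 659 loops that touched another bin, 570 had both anchors in other bins (86.5%, 83.7 to 88.9%), a class that pools middle- and low-score bins. Taken as single classes, 371 of 515 loops stayed in middle-score bins (72.04%, 68.0 to 75.7%). In low-score bins 135 of 208 did (64.9%, 58.2 to 71.1%). Of the 490, 366 had both anchors in the same bin. Of 184 loops of up to 2 Mb that crossed a bin edge, 103 joined 2 high-score bins (56.0%, 48.8 to 63.0%). The same share was 38.3% (32.0 to 45.1%) for 206 crossing loops that touched middle-score bins and 35.4% (26.6 to 45.4%) for 96 that touched low-score bins. Adjoining bins often share a class, and this was not allowed for. Of the 89 loops with 1 anchor in a high-score bin, 80 had the other in a middle-score bin and 9 in a low-score bin.

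Loops of up to 2 Mb between high-score bins were short, with enrichments close to those of other loops. The 469 loops with both anchors there had a median distance of 200 kb (180 to 235 kb), against 270 kb (250 to 290 kb) for 541 loops with no anchor there, a ratio of 0.741 (0.636 to 0.863). A further 81 loops had 1 anchor in a high-score bin, with a median distance of 430 kb (360 to 540 kb) and a median enrichment of 2.85-fold. Asking for both anchors in high-score bins leaves these longer loops out. Enrichment is the observed contacts over the donut expectation. The 469 loops with both anchors in high-score bins had a median of 2.63-fold (2.58 to 2.68). For the 541 loops with no anchor there it was 2.70-fold (2.65 to 2.75). Median observed contacts were 79 and 74. Loops were stronger over the donut at longer distances in both sets, so they were also set side by side within bands of distance, for 10 kb anchors. At 100 to 200 kb the medians were 2.47-fold (2.42 to 2.54) for 142 loops of high-score bins and 2.41-fold (2.32 to 2.50) for 120 others. At 200 to 400 kb they were 2.70-fold (2.62 to 2.75) and 2.60-fold (2.53 to 2.66), and at 400 to 800 kb 2.75-fold (2.61 to 2.92) and 2.82-fold (2.72 to 2.91). The intervals of the medians overlapped in each of the 5 bands. At 200 to 400 kb the ratio was 1.04 with an approximate interval of 1.005 to 1.07, above 1, while over all distances it was 0.975 (0.948 to 1.002). Loops of up to 100 kb made up 15.1% of those of high-score bins, against 8.32% of the others. At a domain corner lay 332 of the 469 (70.8%, 66.5 to 74.7%), against 66.9% of all loops of up to 2 Mb. Within the high-score bins, corner loops were shorter (median 180 kb) than the 137 loops off corners (290 kb). The tolerance for a corner has a fixed minimum, which is a larger part of the length of a short loop. Short loops could thus meet it more easily, so the difference in length may come in part from the rule. Other tolerances were tried for the share of domains only. Neither the difference in length nor the 70.8% was tested under them.

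Among loops of up to 2 Mb with at least 20 contacts, the highest enrichment between high-score bins was on chromosome 2. Its anchors were 86950001 to 86960000 and 87290001 to 87300000. It had 21 observed contacts where the donut gave 0.553, so it was enriched 38.0-fold (23.5 to 58.0), and 19.3-fold over the highest of the 4 local expectations. The next spanned 1.95 Mb on chromosome 9 (86500001 to 86510000 with 88450001 to 88460000) and was enriched 11.04-fold (6.84 to 16.9) on 21 contacts. Neither was at a domain corner. Corner loops followed on chromosome 18 (60680001 to 60685000 with 60985001 to 60990000, 5.86-fold on 26 contacts) and chromosome 2 (45205001 to 45210000 with 45720001 to 45725000, 5.84-fold on 40 contacts). Next came a loop off corners on chromosome 1 (149330001 to 149340000 with 149720001 to 149730000, 5.44-fold on 20 contacts). Loops with the most contacts were short corner loops of about 2.1-fold enrichment. They lay on chromosome 6 (32850001 to 32860000 with 32920001 to 32930000, 180 contacts), chromosome 8 (8530001 to 8540000 with 8580001 to 8590000, 170 contacts) and chromosome 17 (42020001 to 42030000 with 42070001 to 42080000, 166 contacts). Among these named loops, those of highest enrichment were thus not those with the most contacts. Enrichment divides the contacts by the expectation, so the 2 rankings favour different loops from the start. The longest after the chromosome 9 loop spanned 1.83 Mb on chromosome 3 (12.3-fold on 19 contacts) and 1.62 Mb on chromosome 1 (5.91-fold on 17 contacts).

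Domain density was nearly flat inside a run of high-score bins and lower outside it, with the lowest of the values in the third bin outside. Members at the edge of a run held 2.09 domains per Mb, the next ones in 2.05, those in position 3 from the edge 1.95 and those deeper inside 1.88. A chromosome end or an unscored bin did not count as an edge, so bins at an end could be placed deep inside. Depth in a run was not separated from the lower density of members near the ends. The first bin outside held 1.57 per Mb, the second 1.08, the third 0.701 and bins farther away 0.968. Anchors were at 1.49 per Mb in edge members and 1.40 in the first bin outside, with overlapping intervals, and at 0.819 in the second. By run length there was no single order. High-score bins that stood alone held 2.11 domains per Mb (1.74 to 2.53), those in runs of 2 to 4 bins 2.04 (1.84 to 2.25), those in runs of 5 to 9 bins 1.86 (1.71 to 2.02) and those in runs of 10 or more 2.31 (2.06 to 2.58). Of these, the intervals of the 2 longer classes did not overlap each other. Members within 10 Mb of a chromosome end, which were sparser in domains, were not set apart in this comparison by run length.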

How the data were processed

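In situ Hi-C tables of HEK293T cells, made from 2 libraries, were used as deposited. Chromatin was cut with MboI, per the labels' protocols. FastQC 0.11.7, BWA 0.7.8, Picard and hg19 are named, without roles, per the submitters' processing notes. Neither the way the libraries were combined nor the reads per library are stated in the sources used here, so depth is unknown. The deposited compartment score (1 per 1 Mb bin) and the domain caller's score (5 kb bins) were used unchanged. Loops were called with HiCCUPS at 5 and 10 kb, per the deposited file's name. Observed counts of contacts and the expected signal in 4 neighbourhoods are the authors', per the file headers, and their deposited q-values were not used.

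Bins, members and lists were chosen with earlier results of these data known. Named regions followed a rule: the highest bin per chromosome, the 5 longest runs, the 5 bins with most domains and with most anchors, 3 extreme domains of each kind, and the loops highest in enrichment, contacts or length. A loop was at a corner within 50 kb, or 0.2 of its length if larger, of both ends of a domain. Distances are start to start. Intervals are 95%: exact Poisson (densities, enrichment), exact conditional (density ratios), Wilson (shares) and binomial (medians, combined for ratios). Nothing says that the libraries came from separate cultures. Python 3.11.15, pandas 2.3.3 and scipy 1.17.1 were used, and the measures were tested on simulated data. Alternatives are in the closing section. Sequences and genes are not analysed here.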

Additional observations from a re-analysis of the deposited data

How the results depend on the processing

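Of 98 values recomputed under other settings, 81 were counted as unchanged, which meant staying within the counting interval of the value reported. Among the 81 was the number of member bins, which has no interval and stayed at 676. None of the 98 changed the direction of a difference whose interval excluded no difference. Against low-score bins alone the domain density ratio was 2.97, the domain length ratio 0.574, the anchor density ratio 3.12, the loop enrichment ratio 0.947 and the difference in corner share 5.14 percentage points. Against middle-score bins alone the domain density ratio was 1.33 and the anchor density ratio 1.17. With the upper 25% of bins kept, the domain density ratio was 1.70, the anchor density ratio 1.48 and the share of loops staying among members 79.3%. With the upper 50% kept they were 2.18, 2.24 and 89.2%, and the corner share differed by 3.38 points. For domains above the median caller score the density ratio was 2.02 and the length ratio 0.857. The enrichment ratio was 1.04 for loops of 200 to 400 kb with 10 kb anchors, above 1 where the value reported was 0.975. Leaving out each chromosome in turn gave ranges of 1.79 to 1.90 (domain density ratio), 0.684 to 0.736 (domain length ratio), 0.0212 to 0.0350 (caller score difference), -0.981 to 1.30 points (corner share), 1.63 to 1.79 (anchor density ratio), 0.714 to 0.852 (loop distance ratio), 0.968 to 0.980 (enrichment ratio), 82.7 to 85.9% (loops staying among members) and 2 to 3 Mb (median run). Without bins within 10 Mb of an end, a setting added after seeing the data, the density ratios were 1.97 for domains and 1.86 for anchors. The setting against other classes gives no value for loops staying among members. No paired analysis was possible because the tables hold no column for either library and there is 1 group. For the same reason neither library could be left out. Loop pixels hold 13 to 269 contacts for loops between high-score bins, so single enrichments have wide intervals, and regions without a listed domain or loop may hold weaker ones.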

Other observations

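Loops over 2 Mb between high-score bins were few and gathered on a pair of chromosomes. Of 58 loops over 2 Mb on the 16 chromosomes, 21 had both anchors in high-score bins, 10 of them on chromosome 1 and 9 on chromosome 9. All 9 on chromosome 9 shared the anchor 130890001 to 130900000, in the bin with the highest score of that chromosome, and their other ends lay between 92210001 and 93640000. They had 14 to 36 observed contacts, enrichments of 108-fold to 359-fold over the donut and 3.596-fold to 6.39-fold over the highest of the 4 expectations. On chromosome 1, 5 loops shared the anchor 234910001 to 234920000, with other ends between 16830001 and 17770000, and 17 to 269 contacts. The loop with 269 contacts joined 17050001 to 17060000 to that anchor and was enriched 12.04-fold over the donut, but 1.88-fold over the highest expectation. None of the 21 was at a domain corner. They spanned 4.12 to 218 Mb, and their median donut expectation was 0.161 contacts. They are called loops only because the loop caller listed them, and what gave rise to these contacts was not tested.

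High-score bins were spread unevenly over the sequence on either side of the longest unscored stretch on some chromosomes. On chromosome 9 they took 37 of 77 scored bins after that stretch (48.1%) and 5 of 47 before it. On chromosome 20 they took 18 of 34 after it (52.9%) and 3 of 27 before it. On chromosome 6 the order was opposite, with 24 of 110 bins after it (21.8%) and 33 of 59 before it (55.9%).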
